A study of Mus musculus with 17 samples.

Results

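The 48 genes described here encode proteins of mitosis and cytokinesis and were read in cardiac fibroblasts (CFs) sorted from infarcted mouse hearts. They were chosen by name as a fixed list of G2 and M phase genes, covering kinases, the spindle checkpoint, kinetochores, the spindle and cytokinesis, by a rule that takes no measured value, though earlier results of these data were known when the list was drawn up. All 48 had a row among the 31053 genes listed, and all 48 were among the 14030 genes that passed the filter on low counts (at least 10 counts in at least 3 libraries). The cells came from hearts of C57BL/6 mice, 8 to 10 weeks old, of the genotype Collagen1a1-GFP+, in which the collagen I alpha 1 promoter drives GFP, after myocardial infarction induced by ligation of the left anterior descending coronary artery. Every library held cells that were GFP+, CD31- and CD45- at 1, 2, 3, 4, 5 or 6 days post injury (dpi), with 4 libraries at 3 dpi, 1 library at 5 dpi and 3 libraries at each other day. Uninfarcted hearts were not analysed here, so 1 dpi, itself a time after injury, was the reference for each rise. The reporter marks cells with an active collagen promoter, so the libraries describe collagen-expressing cells and not all stromal cells of the heart.

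Mitosis is run by Cdk1 bound to cyclins A and B, which Cdc25 phosphatases switch on. The anaphase-promoting complex, with Cdc20 and Ube2c, destroys securin and switches Cdk1 off by destroying cyclin B. Between those steps chromosomes are condensed, attached to the spindle through centromeres and kinetochores, and held by the spindle checkpoint until every kinetochore is attached, after which the central spindle and the contractile ring divide the cell. Most genes of this program are transcribed in G2 and M phase under the transcription factors Foxm1 and Mybl2, so their messenger RNA is scarce in resting tissue, and fibroblasts of the uninjured adult heart divide rarely. In bulk libraries such as these, more dividing cells and more mitotic RNA per cell cannot be told apart.

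Facts of the libraries that touch the values below were as follows. Totals ran from 8021815 to 22029938 counts per library (median 14123952), and 3 libraries held under 9000000. The 8 fibroblast markers summed to between 12600 and 42000 counts per 1000000 (CPM) in every library. The leukocyte list of 15 genes summed to 57.1 to 349 CPM at 3 dpi, 108 at 5 dpi and 15.4 to 56.8 elsewhere; Cd3e was at 0 in every library, and Ptprc, which encodes CD45, lay between 0 and 3.09. The erythroid list of 5 genes summed to 272, 728 and 2690 CPM in replicates 1, 2 and 3 of 4 dpi, to 55.8 to 506 at 6 dpi and to 2.13 to 182 elsewhere. Mitochondrial genes took 1.35 to 1.86% of the counts at 1 and 2 dpi, 0.32 to 0.78% at 3 and 5 dpi, 1.22 to 2.04% at 4 dpi and 0.42, 0.46 and 1.71% at 6 dpi. The labels name no sex, but Xist exceeded the Y-linked genes in replicate 1 of 1 dpi and in all libraries of 4 and 6 dpi, while the Y-linked genes exceeded Xist in all others. The 3 dpi libraries were also named by another scheme than the rest, and with the 5 dpi library they detected more genes (15436 to 15857) than most of the deeper libraries. Every difference from 3 dpi therefore cannot be told apart from the naming scheme, and those of 4 and of 6 dpi from 3 dpi cannot be told apart from the sex pattern either. Those of 4 and of 6 dpi from 2 dpi cannot be told apart from the sex pattern, and 1 dpi held both patterns. In turn 2 and 3 dpi share the sex pattern, 4 and 6 dpi share both, and 1, 2, 4 and 6 dpi share the naming scheme.

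The promoters of mitotic genes are known for a pair of short motifs, the CCAAT box and the cell cycle genes homology region (CHR), through which the cell cycle repressor and activator complexes act. The RefSeq promoter table (GRCm38.p6) held windows of 250 bases before to 50 bases after the annotated start for 40 of the 48 genes. Both strands were searched for CCAAT, for the CHR form TTTGAA and for the rarer, palindromic form TTCGAA, and in 1 place of these windows a pair of different motifs shared bases. TTTGAA lay in the windows of 28 of the 40 genes (70.0%), against 14.4% of the 10711 tested genes with a window, and CCAAT lay in 30 of the 40 (75.0%), against 42.8%. Both a CHR form and CCAAT were found for 27 genes (67.5%), against 6.89% of the tested genes. These are counts of letters and say nothing of binding in these cells. The stretches of 120 bases that end just before the most upstream annotated start are printed 5′ to 3′ on the strand of the gene. The CHR and CCAAT letters of either strand are in capitals. The stretches are given for 5 genes called at 2 dpi (Ccnb1, Ccnb2, Cdc20, Ube2c, Kif11). They are also given for 2 genes first called at 3 dpi (Top2a, Cdk1) and for 2 called at no day (Cdc25b, Nusap1).
Ccnb1, chr13:100786571-100786690, minus strand: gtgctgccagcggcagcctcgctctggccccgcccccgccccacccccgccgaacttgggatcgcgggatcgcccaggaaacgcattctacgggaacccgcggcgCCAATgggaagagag
Ccnb2, chr9:70421555-70421674, minus strand: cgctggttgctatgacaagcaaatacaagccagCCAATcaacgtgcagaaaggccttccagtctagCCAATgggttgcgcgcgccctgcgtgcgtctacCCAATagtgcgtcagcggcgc
Cdc20, chr4:118437353-118437472, minus strand: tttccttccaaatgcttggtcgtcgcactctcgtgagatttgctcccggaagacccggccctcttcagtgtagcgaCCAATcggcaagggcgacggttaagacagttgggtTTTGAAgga
Ube2c, chr2:164769778-164769897, plus strand: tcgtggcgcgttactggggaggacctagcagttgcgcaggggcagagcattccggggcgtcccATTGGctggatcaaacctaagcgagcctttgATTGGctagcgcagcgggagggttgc
Kif11, chr19:37376262-37376381, plus strand: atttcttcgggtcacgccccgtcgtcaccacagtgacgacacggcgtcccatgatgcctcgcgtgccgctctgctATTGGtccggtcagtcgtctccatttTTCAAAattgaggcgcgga
Top2a, chr11:99024190-99024309, minus strand: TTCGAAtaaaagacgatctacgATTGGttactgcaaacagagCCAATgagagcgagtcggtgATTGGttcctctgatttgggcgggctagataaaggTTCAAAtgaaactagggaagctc
Cdk1, chr10:69352939-69353058, minus strand: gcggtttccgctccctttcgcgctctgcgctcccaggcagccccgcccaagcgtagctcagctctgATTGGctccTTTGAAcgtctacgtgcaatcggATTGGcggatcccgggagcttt
Cdc25b, chr2:131186828-131186947, plus strand: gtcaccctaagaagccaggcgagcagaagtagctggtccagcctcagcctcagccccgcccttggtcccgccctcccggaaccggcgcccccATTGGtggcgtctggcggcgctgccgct
Nusap1, chr2:119618178-119618297, plus strand: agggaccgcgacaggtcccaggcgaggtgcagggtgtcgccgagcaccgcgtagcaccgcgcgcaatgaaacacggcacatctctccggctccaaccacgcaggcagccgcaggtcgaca
In these stretches CCAAT occurred in all but Nusap1, and a CHR form occurred in Cdc20, Kif11, Top2a and Cdk1. The full windows of Ccnb2 and Ube2c also held TTTGAA, outside the bases printed, while that of Ccnb1 held no CHR form. By onset day, TTTGAA lay in the full windows of 10 of 13 genes called at 2 dpi (76.9%) and of 17 of 23 genes first called at 3 dpi (73.9%). No motif was found in the windows of Birc5 and Nuf2, called at 2 dpi, of Melk, Mybl2 and Mad2l1, first called at 3 dpi, and of Nusap1 and Pttg1, called at no day. Of the other genes called at no day, Ttk held CCAAT and TTTGAA and Cdc25b held CCAAT and TTCGAA.

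The mitotic genes rose together from 1 to 3 dpi, stayed high at 4 and 5 dpi in most libraries and were lower again at 6 dpi without returning to the 1 dpi level. The mean over the 48 genes, on the log2 CPM scale with a prior count of 2, was 0.50 ± 0.35 (SD, n = 3) at 1 dpi, 2.53 ± 0.35 (n = 3) at 2 dpi, 4.15 ± 0.20 (n = 4) at 3 dpi, 3.58 ± 0.58 (n = 3) at 4 dpi and 2.59 ± 0.26 (n = 3) at 6 dpi. The single 5 dpi library stood at 4.18. No library of 1 dpi exceeded 0.81 and no library of 3 dpi fell below 3.96, so these days were far apart. At 4 dpi, replicates 1 and 2 both stood at 3.92 and replicate 3, which had 8336263 counts, stood at 2.91 and had the highest erythroid sum of all libraries. The mitochondrial share was lower in the libraries of 3 and 5 dpi and in replicates 1 and 2 of 6 dpi than in every library of 1, 2 and 4 dpi, and neither its part nor that of the erythroid RNA in the mitotic values was tested. Summed over the 48 genes, they made up 147.2 to 184.7 CPM of a library at 1 dpi and 1161 to 1612 CPM at 3 dpi.

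**Figure D1:**
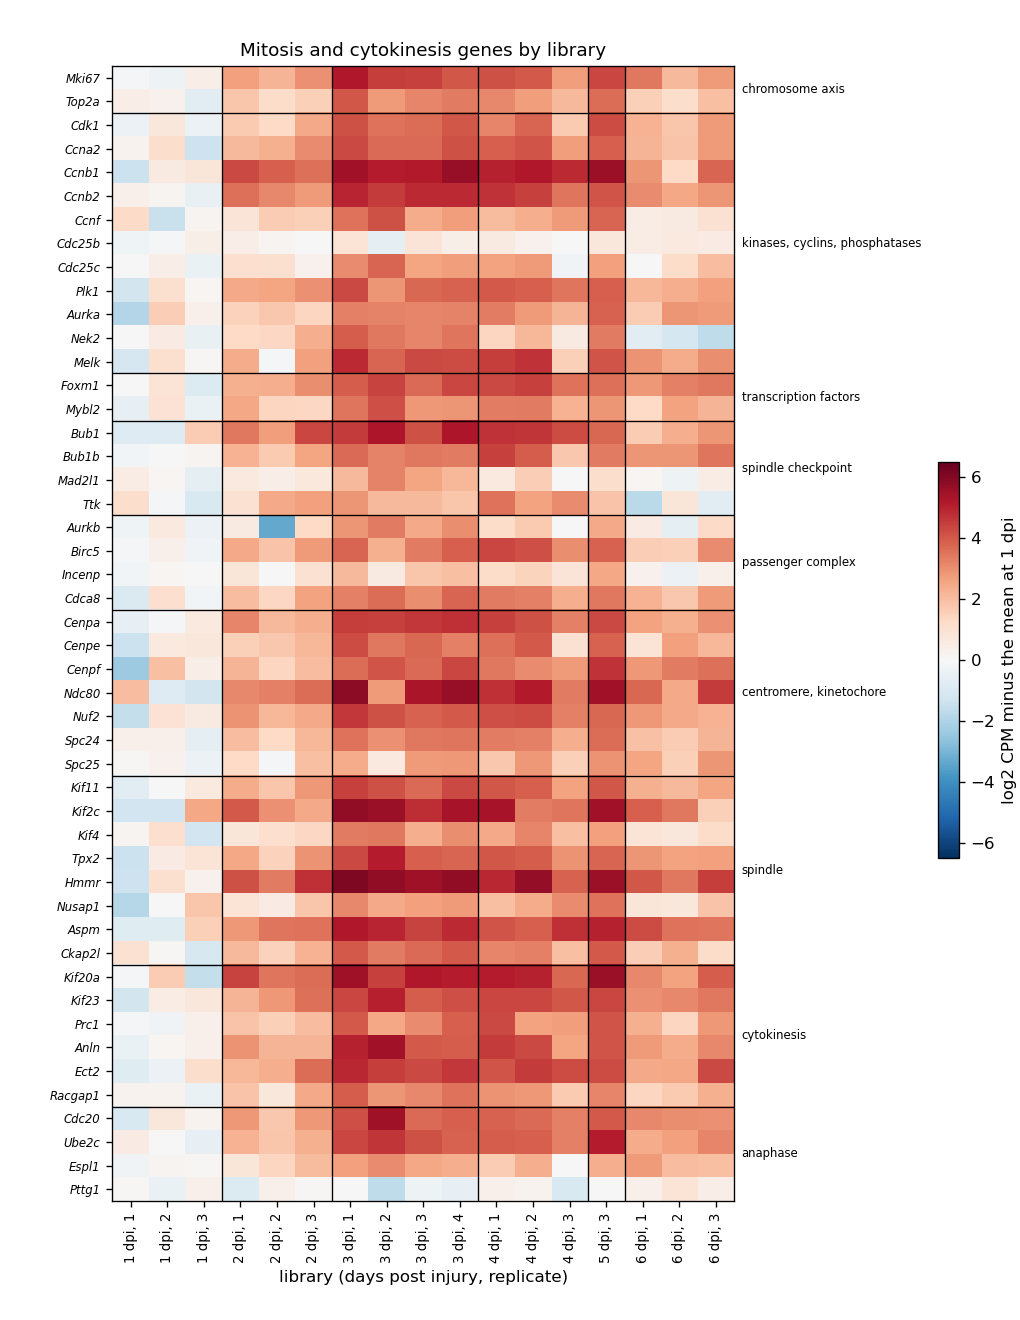
Heat map of the 48 mitosis and cytokinesis genes (lines, grouped by role) in the 17 libraries (columns, by day and replicate), as log2 CPM minus the gene's mean at 1 dpi. Nearly all genes are red from 2 dpi and darkest at 3 to 5 dpi, while Cdc25b stays pale in every library, Pttg1 is pale or blue and lowest in replicate 2 of 3 dpi, and Nek2 turns blue at 6 dpi.

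**Figure D2:**
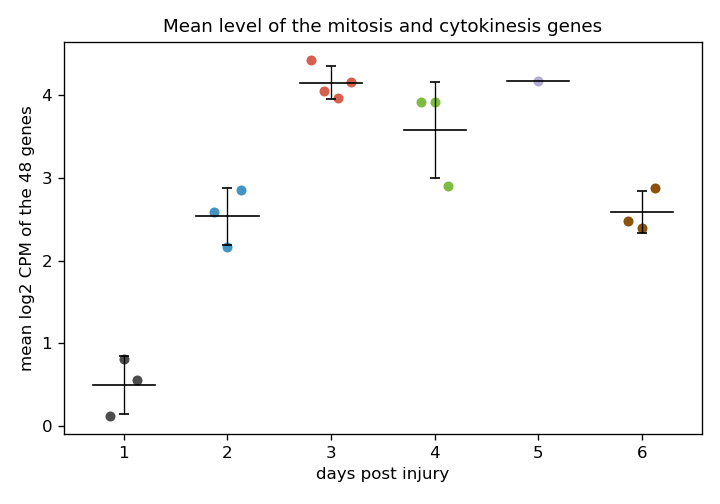
Mean log2 CPM of the 48 genes in each library (points) by day post injury, with the mean of the day (line) and its SD (bars; none for the single 5 dpi library). The 4 libraries of 3 dpi lie between 3.96 and 4.42, and the third replicate of 4 dpi lies at 2.91, below the other two.

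A difference between any days was called for 45 of the 48 genes (edgeR quasi-likelihood F-test over all days, adjusted p under 0.05), where 15.0% of all genes tested were called. The exceptions were Nusap1, Pttg1 and Cdc25b, with edgeR adjusted p of 0.0925, 0.297 and 0.691. The leukocyte markers were also higher at 3 and 5 dpi, and their part in the mitotic rise was not tested. Replicates 1 and 2 of 3 dpi had leukocyte sums of 81.8 and 57.1 CPM and mitotic means of 4.42 and 4.06, and replicates 3 and 4 had sums of 349 and 314 and means of 3.96 and 4.16.

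The onset of the program was read against 1 dpi. At 2 dpi 16 of the 48 genes were already higher and none lower, where 0.157% of all genes tested were called higher, so that 16 of the 22 genes higher at 2 dpi in the whole table were mitotic genes of this list. The median log2 fold change of the 48 genes was 2.02, against 0.01 over all genes tested, and 47 of the 48 were positive. At 3 dpi 44 were higher and none lower, where 4.33% of all genes were called higher. The median was then 3.65. No gene was first called at 4 or 6 dpi, so onset fell at 2 dpi for 16 genes, at 3 dpi for 28 and at no day for Cdc25b, Ttk, Nusap1 and Pttg1. Onset here is the day of the first call, and no test compared the timing of one gene with another. Without the test, the libraries of 2 dpi were all higher than those of 1 dpi for 33 of the 48 genes, and for 8.05% of all genes. Those of 3 dpi were all higher than those of 1 dpi for 46 genes, and for 11.7% of all genes. Among the 44 genes called at 3 dpi, the mean at 2 dpi had covered a median of 54.0% of the log2 rise from 1 to 3 dpi, from 12.3% for Aurkb to 74.0% for Bub1. The share for Aurkb includes replicate 2 of 2 dpi, which held only 4 counts of that gene. The number called at 2 dpi moved as single libraries were left out. It was 7 without replicate 1 and 10 without replicate 3 of 1 dpi, and 9 without replicate 1 and 6 without replicate 3 of 2 dpi. Over all genes 13, 16, 16 and 13 were then called higher, against 22 with all libraries. Of the 48 genes 33 to 35 were higher at an unadjusted p under 0.05 in these fits, against 37. Among libraries in which the Y-linked genes exceeded Xist 4 of the 48 were called at 2 dpi (35 higher at an unadjusted p under 0.05). There 8 of all genes were called higher at 2 dpi, and 41 of the 48 were still called at 3 dpi.

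**Figure D3:**
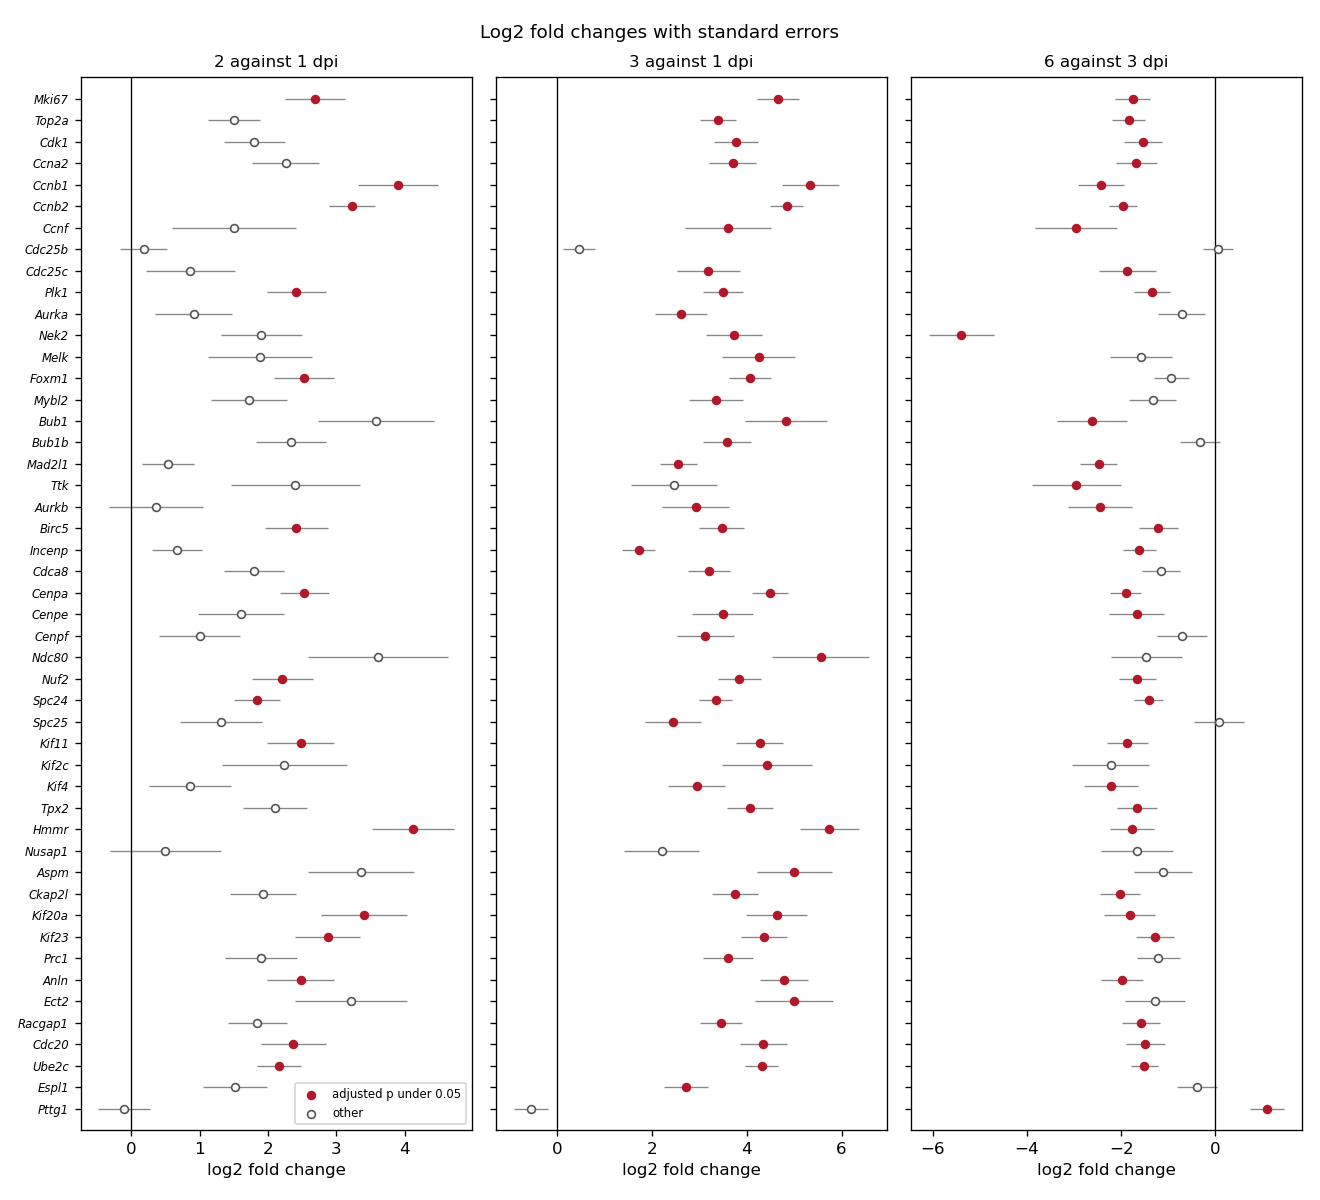
Log2 fold change with its SE (bars) of each of the 48 genes for 2 against 1 dpi, 3 against 1 dpi and 6 against 3 dpi, with filled points where the edgeR adjusted p was under 0.05. At 3 dpi all but Cdc25b, Ttk, Nusap1 and Pttg1 are filled on the right of 0, and at 6 against 3 dpi Pttg1 alone is filled on the right.

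Among the genes of the chromosomes themselves, Mki67, which encodes the Ki-67 protein that coats mitotic chromosomes, was called at 2 dpi, and Top2a, the topoisomerase that untangles sister chromatids, at 3 dpi. Mki67 (ENSMUSG00000031004, chr7:135689784-135716361, minus strand) measured 1.65, 1.36 and 2.44 CPM at 1 dpi and 11.8, 8.71 and 14.9 CPM at 2 dpi. At 3 dpi Mki67 measured 70, 43.1, 41.6 and 30.8 CPM, and at 4 dpi 33, 30.1 and 12.3 CPM. Mki67 was at 38.8 CPM at 5 dpi and at 20.1, 8.01 and 12.8 CPM at 6 dpi. Every library of 2 dpi was above every library of 1 dpi and every library of 3 dpi above those of 2 dpi, while 4 dpi overlapped with both 2 and 3 dpi. The log2 fold change was 2.69 ± 0.44 (SE, edgeR adjusted p = 0.00677) at 2 against 1 dpi, 4.66 ± 0.45 (SE, edgeR adjusted p = 3.48e-06) at 3 against 1 dpi and -1.76 ± 0.38 (SE, edgeR adjusted p = 0.00339) at 6 against 3 dpi. For Top2a the values were 6.08, 5.44 and 2.59 CPM at 1 dpi and 15.7, 10.3 and 13.3 CPM at 2 dpi. At 3 dpi Top2a measured 75.1, 30.8, 41.1 and 47.1 CPM, and at 4 dpi 39.8, 30.2 and 19.4 CPM. Top2a was at 56.8 CPM at 5 dpi and at 13.2, 10.1 and 17.4 CPM at 6 dpi. No 2 dpi library of Top2a reached down to the 1 dpi libraries, yet its log2 fold change of 1.50 ± 0.38 (SE, edgeR adjusted p = 0.174) did not pass the test at 2 dpi. At 3 against 1 dpi it was 3.39 ± 0.38 (SE, edgeR adjusted p = 1.45e-05). CPM values of single genes here are counts per 1000000 of the normalized library size, and since reads come from the 3′ end they were compared between days and not between genes.

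The kinases, cyclins and phosphatases that drive entry into mitosis numbered 11. Of these Ccnb1, Ccnb2 and Plk1 were called at 2 dpi, 10 were called at 3 dpi, and Cdc25b was called at no day. Cyclin B2, Ccnb2 (ENSMUSG00000032218, chr9:70407692-70421547, minus strand), measured 3.8, 3.46 and 2.1 CPM at 1 dpi and 37.3, 27.9 and 21.2 CPM at 2 dpi. At 3 dpi Ccnb2 measured 98.8, 74.8, 90.5 and 89.9 CPM, and at 4 dpi 82.9, 68.6 and 35.5 CPM. Ccnb2 was at 53.8 CPM at 5 dpi and at 26.9, 18.1 and 23.1 CPM at 6 dpi. The 3 dpi libraries were tight and above all other libraries except replicate 1 of 4 dpi, which lay within their range, and no 6 dpi library fell to the 1 dpi range. Ccnb2 rose by a log2 fold change of 3.23 ± 0.34 (SE, edgeR adjusted p = 0.000107) at 2 dpi and 4.84 ± 0.35 (SE, edgeR adjusted p = 9.68e-08) at 3 dpi. Cyclin B1, Ccnb1, was nearly silent at 1 dpi with 20 counts over 3 libraries. It measured 0, 0.412 and 0.489 CPM at 1 dpi and 6.85, 5.21 and 4.21 CPM at 2 dpi. At 3 dpi Ccnb1 measured 15.7, 12.2, 12.7 and 18.2 CPM, and at 4 dpi 11.6, 13 and 10.3 CPM. Ccnb1 was at 16.8 CPM at 5 dpi and at 2.52, 0.767 and 4.84 CPM at 6 dpi. The 6 dpi libraries of Ccnb1 were widely spread, all below 3 and 4 dpi. Its log2 fold change was 3.90 ± 0.59 (SE, edgeR adjusted p = 0.00349) at 2 against 1 dpi, 5.34 ± 0.60 (SE, edgeR adjusted p = 1.27e-05) at 3 against 1 dpi and -2.43 ± 0.49 (SE, edgeR adjusted p = 0.00193) at 6 against 3 dpi. Plk1, the Polo-like kinase that acts from mitotic entry to cytokinesis, measured 0.506, 2.89 and 1.47 CPM at 1 dpi and 7.98, 8.5 and 11.4 CPM at 2 dpi. At 3 dpi Plk1 measured 28.5, 10.5, 19.3 and 20.6 CPM, and at 4 dpi 23.4, 21.2 and 16.5 CPM. Plk1 was at 21.6 CPM at 5 dpi and at 6.46, 7.5 and 9.3 CPM at 6 dpi. Its 4 dpi libraries lay within the range of 3 dpi, and its mean was highest at 4 dpi among the days with more than 1 library, with a log2 fold change of 0.05 ± 0.36 (SE, edgeR adjusted p = 0.965) at 4 against 3 dpi. The rise of Plk1 was 2.41 ± 0.43 (SE, edgeR adjusted p = 0.0165) at 2 against 1 dpi. The kinases Cdk1, Aurka, Nek2 and Melk, the cyclins Ccna2 and Ccnf and the phosphatase Cdc25c were first called at 3 dpi. Their log2 fold changes ran from 2.62 for Aurka to 4.25 for Melk.

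**Figure D4:**
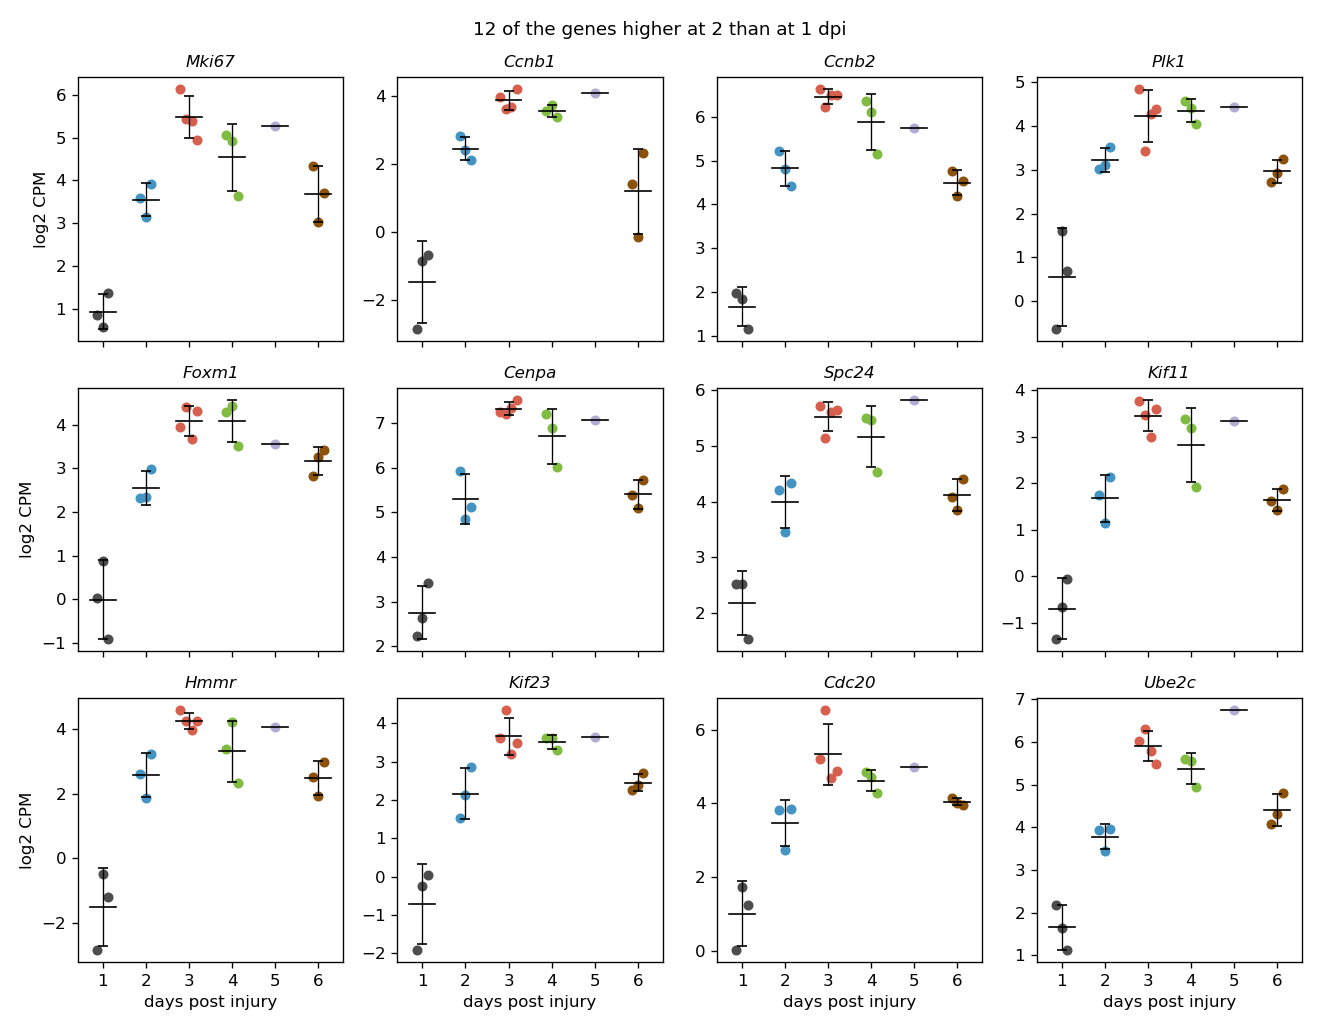
Log2 CPM by library (points) and day post injury for 12 of the 16 genes called higher at 2 than at 1 dpi, with the mean (line) and SD (bars) of each day, each gene on its own scale. In each panel the 2 dpi points lie above the 1 dpi points, and the 3 dpi mean lies above the 2 dpi mean.

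Both transcription factors of the program rose. Foxm1, which activates G2 and M phase genes, measured 0.886, 1.69 and 0.391 CPM at 1 dpi and 4.82, 4.94 and 7.79 CPM at 2 dpi. At 3 dpi Foxm1 measured 15.3, 21.2, 12.6 and 19.8 CPM, and at 4 dpi 19.6, 21.3 and 11.3 CPM. Foxm1 was at 11.7 CPM at 5 dpi and at 6.91, 9.46 and 10.6 CPM at 6 dpi. Of its 4 dpi libraries, replicate 1 lay within the 3 dpi range, replicate 2 just above it and replicate 3 below it. Every 6 dpi library was below all of 3 and 4 dpi and above every 2 dpi library except replicate 3, which replicate 1 of 6 dpi did not reach. Foxm1 was called at 2 dpi with a log2 fold change of 2.52 ± 0.44 (SE, edgeR adjusted p = 0.0144), was 4.07 ± 0.44 (SE) at 3 dpi and was not called lower at 6 against 3 dpi (-0.94 ± 0.37 SE, edgeR adjusted p = 0.0817). Mybl2, the B-Myb factor of the same promoters, measured 0.633, 2.02 and 0.684 CPM at 1 dpi and 6.16, 2.82 and 2.66 CPM at 2 dpi. At 3 dpi Mybl2 measured 12.3, 20, 7.66 and 7.87 CPM, and at 4 dpi 11, 11.5 and 5.13 CPM. Mybl2 was at 8.02 CPM at 5 dpi and at 2.58, 6.65 and 5.07 CPM at 6 dpi. The 2 dpi libraries of Mybl2 exceeded those of 1 dpi, but the log2 fold change of 1.72 ± 0.55 (SE, edgeR adjusted p = 0.392) did not pass the test until 3 dpi, at 3.35 ± 0.56 (SE, edgeR adjusted p = 0.00092).

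The spindle checkpoint genes, whose products delay anaphase until all kinetochores are attached, had 4 members with different courses. Bub1, Bub1b and Mad2l1 were called at 3 dpi and Ttk, the kinase that starts the checkpoint signal, at no day against 1 dpi. Bub1b, which encodes the BubR1 inhibitor of the anaphase-promoting complex, measured 0.76, 0.907 and 1.03 CPM at 1 dpi and 4.77, 3.24 and 5.89 CPM at 2 dpi. At 3 dpi Bub1b measured 13.1, 9.42, 10.9 and 10.5 CPM, and at 4 dpi 21.9, 15.5 and 3.31 CPM. Bub1b was at 10.7 CPM at 5 dpi and at 7.36, 7.41 and 11.5 CPM at 6 dpi. The third replicate of 4 dpi was far below the other two, and 6 dpi overlapped with 3 dpi. The log2 fold change of Bub1b was 3.58 ± 0.51 (SE, edgeR adjusted p = 0.000187) at 3 against 1 dpi and -0.33 ± 0.42 (SE, edgeR adjusted p = 0.622) at 6 against 3 dpi. Mad2l1, the Mad2 subunit of the same inhibitor, measured 12, 9.44 and 5.57 CPM at 1 dpi and 13.3, 11.6 and 13.8 CPM at 2 dpi. At 3 dpi Mad2l1 measured 36.8, 82.3, 50.8 and 38.6 CPM, and at 4 dpi 13.6, 26 and 8.87 CPM. Mad2l1 was at 19.5 CPM at 5 dpi and at 9.3, 6.73 and 11.9 CPM at 6 dpi. All 4 libraries of 3 dpi stood above all others, replicate 2 furthest. Mad2l1 did not differ detectably at 2 dpi (0.53 ± 0.38 SE, edgeR adjusted p = 0.889), rose at 3 dpi (2.55 ± 0.39 SE, edgeR adjusted p = 0.000379) and was lower at 4 than at 3 dpi (-1.68 ± 0.37 SE, edgeR adjusted p = 0.0182). Ttk had 414 counts in all and measured 0.886, 0.289 and 0.0978 CPM at 1 dpi and 0.803, 2.44 and 2.83 CPM at 2 dpi. At 3 dpi Ttk measured 3.28, 1.85, 1.86 and 1.49 CPM, and at 4 dpi 5.32, 2.71 and 3.74 CPM. Ttk was at 1.56 CPM at 5 dpi and at 0, 0.682 and 0.154 CPM at 6 dpi. Its highest library of 6 dpi was below every 3 and 4 dpi library. The log2 fold change of -2.95 ± 0.94 (SE, edgeR adjusted p = 0.0332) at 6 against 3 dpi was no longer called without replicate 1 of 3 dpi or replicate 1 or 3 of 6 dpi. The values of 2.47 ± 0.91 (SE, edgeR adjusted p = 0.11) at 3 dpi and 3.35 ± 0.96 (SE, edgeR adjusted p = 0.0649) at 4 dpi, both against 1 dpi, missed the threshold.

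All 4 genes of the chromosomal passenger complex, which corrects attachment errors and then moves to the central spindle, were called at 3 dpi. Birc5, the survivin subunit, was called already at 2 dpi and measured 3.93, 5.24 and 3.57 CPM at 1 dpi and 23.6, 15.7 and 29 CPM at 2 dpi. At 3 dpi Birc5 measured 59.8, 21.3, 45.2 and 63.4 CPM, and at 4 dpi 88.4, 78.8 and 35.7 CPM. Birc5 was at 60.8 CPM at 5 dpi and at 12.9, 12.6 and 36 CPM at 6 dpi. Replicates 1 and 2 of 4 dpi were its highest, while replicate 2 of 3 dpi lay within the 2 dpi range. Birc5 rose by 2.41 ± 0.46 (SE, edgeR adjusted p = 0.0314) at 2 dpi and by 3.98 ± 0.49 (SE, edgeR adjusted p = 5.17e-05) at 4 dpi on the log2 scale. Cdca8, the borealin subunit, measured 1.52, 6.68 and 2.64 CPM at 1 dpi and 12.5, 7.76 and 19.2 CPM at 2 dpi. At 3 dpi Cdca8 measured 30.6, 39.4, 25.6 and 42.7 CPM, and at 4 dpi 32.2, 30 and 16.3 CPM. Cdca8 was at 34.1 CPM at 5 dpi and at 14.8, 10.7 and 21.2 CPM at 6 dpi. Its 2 dpi libraries were above those of 1 dpi with a log2 fold change of 1.80 ± 0.44 (SE, edgeR adjusted p = 0.167), which was not called, and it was 3.20 ± 0.45 (SE, edgeR adjusted p = 0.000167) at 3 dpi. Incenp, the scaffold, had the smallest called rise at 3 dpi, 1.72 ± 0.35 (SE, edgeR adjusted p = 0.00525), and by 6 dpi stood at 0.10 against 1 dpi. The kinase Aurkb measured 2.79, 5.48 and 2.59 CPM at 1 dpi and 5.25, 0.213 and 8.72 CPM at 2 dpi. At 3 dpi Aurkb measured 26.1, 37.4, 19.1 and 28.7 CPM, and at 4 dpi 7.99, 11.3 and 3.31 CPM. Aurkb was at 19.6 CPM at 5 dpi and at 4.97, 2.13 and 8.15 CPM at 6 dpi. One 2 dpi library, replicate 2, held only 4 counts of Aurkb at a depth of 18866820, and the 4 dpi libraries were all below the 3 dpi ones, though the difference was not called (-1.87 ± 0.66 SE, edgeR adjusted p = 0.137).

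All 7 centromere and kinetochore genes were called at 3 dpi, and Cenpa, Nuf2 and Spc24 already at 2 dpi. Cenpa, the histone H3 variant that marks centromeres (ENSMUSG00000029177, chr5:30666777-30674830, plus strand), measured 4.56, 6.06 and 10.5 CPM at 1 dpi and 60.3, 28.7 and 35 CPM at 2 dpi. At 3 dpi Cenpa measured 151, 147, 161 and 184 CPM, and at 4 dpi 147, 118 and 64.6 CPM. Cenpa was at 134 CPM at 5 dpi and at 41.9, 34 and 52.9 CPM at 6 dpi. The days formed steps with no overlap from 1 to 2 to 3 dpi, and 6 dpi lay within the 2 dpi range. Its log2 fold change was 2.53 ± 0.36 (SE, edgeR adjusted p = 0.00279) at 2 dpi and 4.49 ± 0.38 (SE, edgeR adjusted p = 7.12e-07) at 3 dpi, both against 1 dpi, and 1.41 ± 0.34 (SE, edgeR adjusted p = 0.0458) at 4 against 2 dpi. Spc24, an outer kinetochore subunit of the Ndc80 complex, measured 5.57, 5.57 and 2.74 CPM at 1 dpi and 18.2, 10.9 and 20 CPM at 2 dpi. At 3 dpi Spc24 measured 52.1, 35.3, 48.8 and 49.8 CPM, and at 4 dpi 45.3, 44.2 and 23 CPM. Spc24 was at 56.6 CPM at 5 dpi and at 16.9, 14.1 and 21.1 CPM at 6 dpi. It was called at 2 dpi (1.84 ± 0.34 SE, edgeR adjusted p = 0.0231), and its 3 dpi libraries were all above those of 2 dpi. Nuf2, its partner in that complex, measured 0.253, 2.02 and 1.56 CPM at 1 dpi and 8.51, 4.89 and 6.12 CPM at 2 dpi. At 3 dpi Nuf2 measured 26.7, 19.6, 16.2 and 18 CPM, and at 4 dpi 20.7, 21.6 and 10.7 CPM. Nuf2 was at 14.9 CPM at 5 dpi and at 7.69, 6.05 and 5.38 CPM at 6 dpi. Replicate 3 of 4 dpi was the only one of its day below all 3 dpi libraries, and Nuf2 was called at 2 dpi with a log2 fold change of 2.21 ± 0.44 (SE, edgeR adjusted p = 0.036). Ndc80 had 10 counts over the 3 libraries of 1 dpi and its log2 fold change of 5.56 ± 1.02 (SE, edgeR adjusted p = 0.00222) at 3 dpi rests on that low level. Cenpe and Cenpf, which help to capture microtubules, rose by 3.49 and 3.12 at 3 dpi.

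Of the 8 genes for spindle motors and spindle-binding proteins, Kif11 and Hmmr were called at 2 dpi and 7 at 3 dpi. Hmmr, which binds spindle poles and hyaluronan, measured 0, 0.577 and 0.293 CPM at 1 dpi and 5.94, 3.51 and 9.29 CPM at 2 dpi. At 3 dpi Hmmr measured 23.8, 19.1, 15.6 and 18.7 CPM, and at 4 dpi 10.3, 18.5 and 4.91 CPM. Hmmr was at 16.7 CPM at 5 dpi and at 5.55, 3.66 and 7.76 CPM at 6 dpi. From 20 counts in all at 1 dpi it had the largest log2 fold change of the 48 genes at 3 dpi, 5.74 ± 0.62 (SE, edgeR adjusted p = 9.56e-06), after 4.12 ± 0.60 (SE, edgeR adjusted p = 0.00349) at 2 dpi. Kif11, the kinesin that pushes spindle poles apart, measured 0.253, 0.495 and 0.831 CPM at 1 dpi and 3.21, 2.07 and 4.27 CPM at 2 dpi. At 3 dpi Kif11 measured 13.5, 10.9, 7.73 and 11.8 CPM, and at 4 dpi 10.2, 9 and 3.63 CPM. Kif11 was at 10 CPM at 5 dpi and at 2.91, 2.56 and 3.53 CPM at 6 dpi. Its 2 and 6 dpi libraries covered about the same range, above 1 dpi and below 3 dpi, and its log2 fold change at 2 dpi was 2.48 ± 0.49 (SE, edgeR adjusted p = 0.036). Tpx2, the activator of Aurora A on the spindle, measured 0.886, 3.71 and 4.79 CPM at 1 dpi and 15.2, 7.33 and 19.9 CPM at 2 dpi. At 3 dpi Tpx2 measured 53, 92.6, 39.5 and 37 CPM, and at 4 dpi 43.9, 41.1 and 20.3 CPM. Tpx2 was at 37.1 CPM at 5 dpi and at 19.2, 16.3 and 16.9 CPM at 6 dpi. Replicate 2 of 3 dpi was its highest library by far, and Tpx2 rose by 4.07 ± 0.49 (SE, edgeR adjusted p = 3.09e-05) at 3 dpi on the log2 scale but was not called at 2 dpi (2.10 ± 0.47 SE, edgeR adjusted p = 0.112). Kif2c, Kif4, Aspm and Ckap2l were called at 3 dpi with log2 fold changes from 2.94 for Kif4 to 5.00 for Aspm.

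All 6 cytokinesis genes were called at 3, 4 and 6 dpi against 1 dpi. Their median log2 fold change was 4.49 at 3 dpi. Kif23 and Kif20a, kinesins of the central spindle, and Anln, the anillin scaffold of the contractile ring, were called at 2 dpi. Kif23 measured 0.127, 0.701 and 0.88 CPM at 1 dpi and 2.73, 4.2 and 7.16 CPM at 2 dpi. At 3 dpi Kif23 measured 12.1, 20.1, 9.14 and 11.2 CPM, and at 4 dpi 12.2, 12.2 and 9.72 CPM. Kif23 was at 12.4 CPM at 5 dpi and at 4.65, 5.11 and 6.38 CPM at 6 dpi. Its 4 dpi libraries were close together within the range of 3 dpi, and 6 dpi overlapped with 2 dpi. The log2 fold change of Kif23 was 2.87 ± 0.48 (SE, edgeR adjusted p = 0.01) at 2 dpi and 4.36 ± 0.49 (SE, edgeR adjusted p = 1.27e-05) at 3 dpi. For Anln the values were 1.14, 1.77 and 2.05 CPM at 1 dpi and 12.9, 7.81 and 7.97 CPM at 2 dpi. At 3 dpi Anln measured 56.7, 77.2, 28 and 26.5 CPM, and at 4 dpi 41.2, 33.8 and 10.4 CPM. Anln was at 29.8 CPM at 5 dpi and at 11.6, 9.2 and 14.9 CPM at 6 dpi. Replicates 1 and 2 of 3 dpi were well above the other two, and Anln was at 2.48 ± 0.49 (SE, edgeR adjusted p = 0.036) at 2 dpi and 4.78 ± 0.51 (SE, edgeR adjusted p = 9.83e-06) at 3 dpi. Kif20a measured 0.506, 2.06 and 0.0978 CPM at 1 dpi and 14.7, 7.6 and 8.37 CPM at 2 dpi. At 3 dpi Kif20a measured 31.6, 15.1, 25.9 and 23.8 CPM, and at 4 dpi 24.1, 22.6 and 8.97 CPM. Kif20a was at 33.7 CPM at 5 dpi and at 6.01, 4.09 and 10.4 CPM at 6 dpi. Its 2 and 3 dpi libraries were close to each other but did not overlap, its log2 fold change at 2 dpi was 3.40 ± 0.63 (SE, edgeR adjusted p = 0.0236), and the step from 2 to 3 dpi was not called (1.24 ± 0.52 SE, edgeR adjusted p = 0.204). Prc1, Ect2 and Racgap1, the microtubule bundler and the pair that activates the contractile ring, were called from 3 dpi on.

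The 4 anaphase genes differed in the day of their first call, and a difference in timing between them was not tested. Espl1 was not called at 2 dpi (1.52 ± 0.47 SE, edgeR adjusted p = 0.369), though every 2 dpi library was above every 1 dpi library. At 2 dpi it had covered 55.8% of its rise to 3 dpi, against 54.4% for Cdc20 and 50.1% for Ube2c. Ube2c and Cdc20, the ubiquitin-conjugating enzyme and the activator of the anaphase-promoting complex, were called at 2 dpi, separase (Espl1) at 3 dpi, and securin (Pttg1), a target of that complex, at no day. Ube2c (ENSMUSG00000001403, chr2:164769898-164778822, plus strand) measured 4.43, 3.01 and 2.05 CPM at 1 dpi and 15.1, 10.7 and 15.4 CPM at 2 dpi. At 3 dpi Ube2c measured 64.8, 79.5, 54.8 and 44.8 CPM, and at 4 dpi 48.6, 47.2 and 30.9 CPM. Ube2c was at 106 CPM at 5 dpi and at 16.8, 19.7 and 27.9 CPM at 6 dpi. The single 5 dpi library was its highest, and no library of 1, 2 or 3 dpi overlapped with another of these days. Ube2c had a log2 fold change of 2.16 ± 0.32 (SE, edgeR adjusted p = 0.00349) at 2 against 1 dpi, 2.15 ± 0.30 (SE, edgeR adjusted p = 0.0017) at 3 against 2 dpi and 1.62 ± 0.30 (SE, edgeR adjusted p = 0.00777) at 4 against 2 dpi. Cdc20 measured 0.886, 3.22 and 2.25 CPM at 1 dpi and 14.1, 6.59 and 14.1 CPM at 2 dpi. At 3 dpi Cdc20 measured 36.8, 91.6, 25.9 and 29.6 CPM, and at 4 dpi 28.7, 26.3 and 19.4 CPM. Cdc20 was at 31.4 CPM at 5 dpi and at 17.6, 16.1 and 15.4 CPM at 6 dpi. Replicate 2 of 3 dpi was far above the other libraries of the day, and the log2 fold change of Cdc20 was 2.37 ± 0.47 (SE, edgeR adjusted p = 0.036) at 2 dpi and 4.35 ± 0.49 (SE, edgeR adjusted p = 1.27e-05) at 3 dpi. Exons of Elovl1, a gene with 39963 counts, lie opposite those of Cdc20, and the part of its reads in the value was not tested.

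Between 2 and 3 dpi the rise went on. At 3 against 2 dpi 20 of the 48 genes were higher and none lower, where 1.82% of all genes were called higher, and the median log2 fold change was 1.70. The strongest steps that passed the test were those of Aurkb (2.56 ± 0.68 SE, edgeR adjusted p = 0.0461), Cdc25c (2.33 ± 0.62 SE, edgeR adjusted p = 0.0452) and Anln (2.30 ± 0.44 SE, edgeR adjusted p = 0.00824). Aurkb held 98, 4 and 151 counts in replicates 1, 2 and 3 of 2 dpi, so its step rests in part on the low replicate 2. Every 3 dpi library was above every 2 dpi library for 39 genes, as it was for 9.70% of all genes. Without replicate 2 of 2 dpi only 1 of the 48 was called, without replicate 1 or replicate 3 of 2 dpi 10 were, and without replicate 1 or replicate 4 of 3 dpi 11 were. Over all genes 27, 133, 78, 145 and 128 were called higher in these fits, against 255 with all libraries. Of the 48 genes 37 to 43 were higher there at an unadjusted p under 0.05, with a median of 1.58 without replicate 2 of 2 dpi. The direction was the same at 4 against 2 dpi, days that share the naming scheme but differ in the sex pattern. There 47 of the 48 log2 fold changes were positive with a median of 1.16. There Cenpa and Ube2c were called, where 0.805% of all genes were called higher. The number was 9 without replicate 3 of 4 dpi, the library with the lowest mitotic mean of its day, 7 without replicate 2 of 3 dpi, and 0 without replicate 2 of 2 dpi or replicate 2 of 4 dpi (18 and 19 higher at an unadjusted p under 0.05). Over all genes 122, 192, 58 and 49 were called higher in these fits, against 113 with all libraries. The number among the 48 was 1 without replicate 3 of 2 dpi, replicate 1 of 4 dpi, replicate 1 or 2 of 6 dpi, or any other replicate of 3 dpi, where 71 to 105 of all genes were called higher.

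The peak lay at 3 to 5 dpi. By the highest mean log2 CPM, 24 genes peaked at 3 dpi, 21 at 5 dpi, Ttk and Birc5 at 4 dpi and Pttg1 at 6 dpi, with no test for the single 5 dpi library. Without that library 42 genes peaked at 3 dpi, Plk1, Ttk and Birc5 at 4 dpi, and Cdc25b, Spc25 and Pttg1 at 6 dpi. At 4 against 1 dpi 35 of the 48 were higher and none lower, where 2.43% of all genes were called higher. The median log2 fold change was 3.36. At 4 against 3 dpi the median was -0.48, Mad2l1 and Nek2 were lower and none was higher, where 1.08% of all genes were called lower, and 8 genes were lower at an unadjusted p under 0.05. So for 46 of the 48 genes the peak could not be placed at 3 rather than 4 dpi by this test. Both calls were lost without replicate 1 or replicate 3 of 4 dpi (11 and 2 lower at an unadjusted p under 0.05), and 1 was left without replicate 2 of 4 dpi, replicate 1 of 6 dpi, or replicate 1, 3 or 4 of 3 dpi. Over all genes 44 and 112 were called lower where both calls were lost, against 152 with all libraries. Where 1 was left, 33 to 115 of all genes were called lower.

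The mitotic genes were lower at 6 than at 3 dpi, days that differ in the sex pattern and the naming scheme. At 6 against 3 dpi 31 of the 48 genes were lower, where 10.3% of all genes were called lower, and Pttg1 alone was higher, where 9.46% were called higher. The median log2 fold change was -1.64, against -0.03 over all genes tested, and every 6 dpi library was below every 3 dpi library for 40 genes, as it was for 13.5% of all genes. Leaving out replicate 1 or replicate 2 of 6 dpi left 16 calls in all (32 and 33 lower at an unadjusted p under 0.05). Over all genes 784 and 630 were then called lower, against 1439 with all libraries. At 6 against 1 dpi, 34 of the 48 genes were still higher and none was lower, where 6.91% of all genes were called higher, with a median of 2.23. The 44 genes called at 3 dpi kept a median of 59.4% of their log2 rise at 6 dpi, from -44.9% for Nek2 to 102.9% for Spc25. Spc25 was low in replicate 2 of 3 dpi, and without that library its log2 fold change at 6 against 3 dpi was -0.24. At 6 against 4 dpi, days that share the sex pattern and the naming scheme, 43 of the 48 log2 fold changes were negative with a median of -1.08, but only Ccnb2 (-1.46 ± 0.30 SE, edgeR adjusted p = 0.0419) and Nek2 (-3.34 ± 0.68 SE, edgeR adjusted p = 0.0412) were called lower, where 0.278% of all genes were called lower. This number moved from 0 to 12 as single libraries were left out: 12 without replicate 2 of 3 dpi, 9 without replicate 3 of 6 dpi, and 7 without replicate 3 of 4 dpi. Over all genes tested 342, 833 and 120 were called lower in these fits, against 39 with all libraries. Of the 48 genes 1 was called without replicate 2 of 1 dpi or replicate 2 of 2 dpi, where 16 and 17 of all genes were called lower. None was called without any single one of the other libraries of 3, 4 and 6 dpi (18 to 26 lower at an unadjusted p under 0.05). Over all genes 2 to 16 were called lower there. The cardiomyocyte list of 8 genes summed to 104 to 227 CPM at 6 dpi and 10.3 to 16.3 at 3 dpi, and its part in the lower mitotic values was not tested.

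A few genes ran against the common course. Pttg1, whose securin protein holds separase inactive until anaphase (ENSMUSG00000020415, chr11:43420250-43426251, minus strand), was abundant from the start. It measured 61.8, 43.8 and 72.6 CPM at 1 dpi and 31.7, 72.5 and 61.6 CPM at 2 dpi. At 3 dpi Pttg1 measured 56.3, 18.4, 46.9 and 39.5 CPM, and at 4 dpi 72.5, 67.6 and 29.2 CPM. Pttg1 was at 59.4 CPM at 5 dpi and at 73.8, 108 and 77.5 CPM at 6 dpi. Replicate 2 of 3 dpi was its lowest library, the 1, 2 and 4 dpi libraries overlapped, and all 3 libraries of 6 dpi exceeded all others. Pttg1 had a log2 fold change of -0.56 ± 0.36 (SE, edgeR adjusted p = 0.39) at 3 against 1 dpi and 1.10 ± 0.36 (SE, edgeR adjusted p = 0.0366) at 6 against 3 dpi, a call that was lost without replicate 2 or replicate 4 of 3 dpi or replicate 1 or replicate 2 of 6 dpi. It was also lost with the replicate block (edgeR adjusted p = 0.0962), in a fit of just these days (0.0629) and without the libraries under 9000000 counts (0.0655). Cdc25b, a phosphatase that activates Cdk1 at the centrosome, measured 6.46, 7.26 and 10.5 CPM at 1 dpi and 10.8, 9.03 and 7.73 CPM at 2 dpi. At 3 dpi Cdc25b measured 14.9, 5.23, 14.1 and 10.4 CPM, and at 4 dpi 12.1, 9.58 and 7.91 CPM. Cdc25b was at 13.4 CPM at 5 dpi and at 11, 12.2 and 11.5 CPM at 6 dpi. Its 1, 2, 3 and 4 dpi libraries overlapped, and the 6 dpi libraries lay just above all those of 1 and 2 dpi, with a log2 fold change of 0.51 ± 0.34 (SE, edgeR adjusted p = 0.353) against 1 dpi. Its exons lie opposite those of Spef1, which had 3013 counts.

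**Figure D5:**
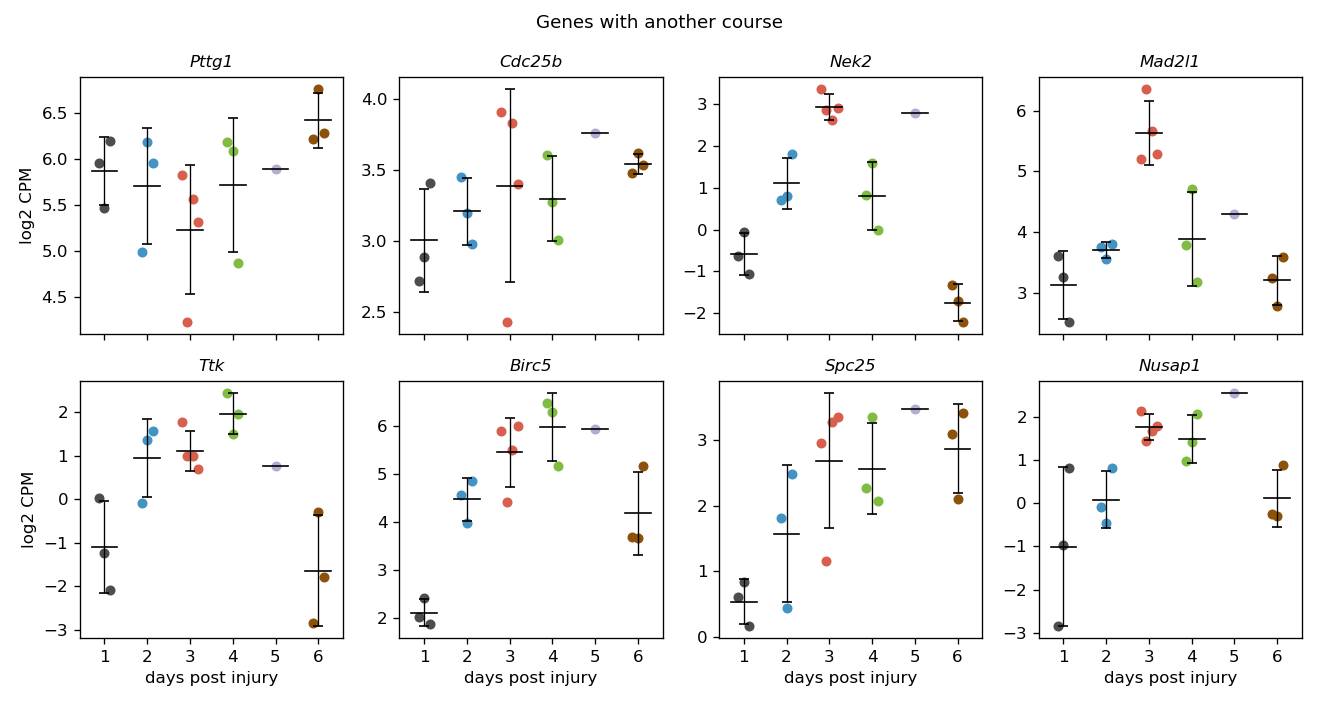
Log2 CPM by library (points) and day post injury for 8 genes with another course than the common one, with the mean (line) and SD (bars) of each day and each gene on its own scale. Pttg1 is highest at 6 dpi, Nek2 falls at 6 dpi below its 1 dpi level, Mad2l1 is highest in the 3 dpi libraries, and Cdc25b overlaps between 1, 2, 3 and 4 dpi and lies just above 1 and 2 dpi at 6 dpi.

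Nek2, a kinase that parts the centrosomes before mitosis, was singled out after its values were seen because it was called at both 4 against 3 and 6 against 4 dpi. It measured 0.506, 0.824 and 0.342 CPM at 1 dpi and 1.5, 1.59 and 3.35 CPM at 2 dpi. At 3 dpi Nek2 measured 10.1, 7.08, 5.95 and 7.34 CPM, and at 4 dpi 1.62, 2.89 and 0.855 CPM. Nek2 was at 6.77 CPM at 5 dpi and at 0.258, 0.17 and 0.0768 CPM at 6 dpi. The 3 and 5 dpi libraries were its highest, and the 6 dpi libraries held 4, 2 and 1 counts and lay below all others. Its log2 fold change was 3.73 ± 0.60 (SE, edgeR adjusted p = 0.000696) at 3 against 1 dpi, -2.06 ± 0.54 (SE, edgeR adjusted p = 0.0452) at 4 against 3 dpi and -5.40 ± 0.69 (SE, edgeR adjusted p = 5.4e-05) at 6 against 3 dpi. The value of -1.67 ± 0.71 (SE, edgeR adjusted p = 0.127) at 6 against 1 dpi did not pass the test. Spc25, a kinetochore partner of Spc24, went the other way and measured 1.39, 1.65 and 0.978 CPM at 1 dpi and 3.37, 1.22 and 5.43 CPM at 2 dpi. At 3 dpi Spc25 measured 7.63, 2.09, 9.59 and 10.1 CPM, and at 4 dpi 4.68, 10.2 and 4.06 CPM. Spc25 was at 11 CPM at 5 dpi and at 8.4, 4.18 and 10.5 CPM at 6 dpi. Its 6 dpi libraries overlapped with those of 3 and 4 dpi, and it stood at 0.07 ± 0.53 (SE, edgeR adjusted p = 0.942) at 6 against 3 dpi and at 2.52 ± 0.61 (SE, edgeR adjusted p = 0.0119) at 6 against 1 dpi. At 3 against 1 dpi Spc25 was called (2.45 ± 0.59 SE, edgeR adjusted p = 0.0168). That call was lost without replicate 1 or replicate 3 of 1 dpi and with the replicate block (edgeR adjusted p = 0.0614, 0.103 and 0.0715). It was also lost without the libraries under 9000000 counts (0.11) and among libraries in which the Y-linked genes exceeded Xist (0.0858). Nusap1, a spindle-binding protein with 454 counts in all, measured 0, 0.371 and 1.61 CPM at 1 dpi and 0.803, 0.584 and 1.62 CPM at 2 dpi. At 3 dpi Nusap1 measured 4.26, 2.58, 3.05 and 3.3 CPM, and at 4 dpi 1.82, 2.54 and 4.06 CPM. Nusap1 was at 5.73 CPM at 5 dpi and at 0.71, 0.682 and 1.69 CPM at 6 dpi. Its 3 dpi libraries exceeded those of 1 and 2 dpi, but the log2 fold change of 2.21 ± 0.79 (SE, edgeR adjusted p = 0.0979) at 3 against 1 dpi missed the threshold, with 1 library of 1 dpi at 0 counts.

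Other genes of mitosis that are not among the 48 were read from 4 further lists of 92 genes, 91 of which were tested. Of these 91, 2 were higher at 2 against 1 dpi, 42 at 3 against 1 dpi and 17 at 6 against 1 dpi, with medians of 0.59, 1.93 and 0.50 on the log2 fold change scale. Of all genes tested 0.157%, 4.33% and 6.91% were called higher in these comparisons. The spindle and cytokinesis list moved most like the 48, with 20 of 24 tested genes higher at 3 dpi and a median of 3.07. Its member with the most counts, Tacc3, a centrosome protein, stood at 3.66 ± 0.52 (SE, edgeR adjusted p = 0.000176), and Ckap5, which lengthens microtubules, at 0.13 ± 0.30 (SE, edgeR adjusted p = 0.844). The genes called at 2 dpi were Cdca3 (3.21 ± 0.48 SE, edgeR adjusted p = 0.00349) and Knstrn (2.50 ± 0.41 SE, edgeR adjusted p = 0.00677). The condensin list had 5 of 8 higher at 3 dpi with a median of 1.40, among them Smc4 (1.37 ± 0.33 SE, edgeR adjusted p = 0.0175), while Ncaph2 stood at 0.03 ± 0.24 (SE, edgeR adjusted p = 0.957). The further centromere and kinetochore list had 10 of 35 higher at 3 dpi, and its abundant checkpoint member Bub3 stood at -0.05 ± 0.32 (SE, edgeR adjusted p = 0.945). At 6 dpi 3 of its genes, Mis12, Zwint and Zw10, were below their 1 dpi level, at log2 fold changes of -1.68, -1.19 and -1.22. They and Cdc27 and Lin54 of the entry and exit list, named after their values were seen, made 5 of the 91 genes called lower at 6 against 1 dpi, where 5.21% of all genes were called lower. The list of entry and exit factors had 7 of 24 higher at 3 dpi with a median of 0.41, and its abundant members Ube2s and Anapc5, parts of the ubiquitin machinery of anaphase, stood at -0.01 ± 0.30 (SE, edgeR adjusted p = 0.994) and -0.17 ± 0.21 (SE, edgeR adjusted p = 0.686).

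DNA replication genes, which act in S phase before mitosis, gave a second point of comparison. At 2 against 1 dpi none of the 40 was called, where 0.157% of all genes were called higher. Their median log2 fold change was -0.02, while the 48 mitotic genes had 16 calls and 2.02. At 3 against 1 dpi 13 of 40 were higher, where 4.33% of all genes were called higher, and the median was 1.17. Among them were Pcna, the sliding clamp (1.54 ± 0.39 SE, edgeR adjusted p = 0.0219), and Tyms, which makes thymidylate (2.13 ± 0.30 SE, edgeR adjusted p = 0.000181). By 6 dpi 30 of the 40 were lower than at 3 dpi with a median of -1.51, where 10.3% of all genes were called lower. At 6 against 1 dpi 2 were higher, where 6.91% of all genes were called higher. At 6 against 1 dpi 4 (Mcm4, Mcm5, Cdt1 and Fen1) were lower, where 5.21% of all genes were called lower. Of the 48 mitotic genes 34 were then still higher than at 1 dpi. The difference between the lists was not tested.

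Some values may hold reads of a neighbour, since the strand setting of the counting is not given in the sources used here. In the GENCODE vM21 annotation of the same build, exons of 12 of the 48 genes overlap exons of a gene on the opposite strand. Among the partners with more counts than the mitotic gene were Gm3550 opposite Cdc25c, with 51973 against 1052 counts, Elovl1 opposite Cdc20, Pdzd11 opposite Kif4, with 11766 against 760, and Exosc9 opposite Ccna2, with 6042 against 5794. Low levels at 1 dpi limit other fold changes: Ccnf, Bub1, Ndc80, Aspm and Ect2 had between 9 and 13 counts over the 3 libraries of that day.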

How the data were processed

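Poly-A RNA of the sorted cells was amplified and sequenced by the authors with a bulk version of MARS-seq, which reads the 3′ ends of transcripts. Per the labels and the study's methods, reads were handled with bcl2fastq, STAR on mm10 and featureCounts. The deposited values were whole-number gene counts, not normalized, for 31053 genes in 17 libraries, of which 10484 genes had no count, and Ensembl identifiers were matched to symbols through the annotation tables. Totals were 8021815 to 22029938 counts, so that 3 counts correspond to between 0.136 and 0.374 CPM (counts per 1000000). The study's methods call the bulk libraries biological replicates and name individual mice for interstitial cells of 3 and 5 dpi, while the labels tie no library to an animal, so p-values measure the spread between these libraries. The 18 pairs of libraries of a day differed by more than counting error, with chi-square per degree of freedom of at least 22.33.

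The 14030 genes that reached 10 counts in 3 or more libraries were tested in edgeR 4.0.16 (R 4.3.3) by the quasi-likelihood F-test with TMM normalization and day as a factor of 6 levels over all 17 libraries. P-values were adjusted by Benjamini-Hochberg over all genes tested in each comparison, with a threshold of 0.05. The single 5 dpi library stayed in the fit and was not tested alone. Onset was the first day called higher than 1 dpi. Levels were log2 CPM with a prior count of 2. CPM per library used TMM-normalized library sizes, and sums over lists used all counts of the library. The 5 dpi library was numbered by its title (replicate 3), while its description gives 1. Values in every library are given, in each of 9 role groups, for the gene with the most counts and the gene with the smallest p over all days, and for genes whose onset or peak was not that of most. From each other list up to 3 genes are named, those with the most counts or against its direction. The 48 genes and the other lists were chosen with earlier results of these data known. Alternatives were DESeq2 1.42.0, other filters, thresholds, scalings and prior counts, a replicate block, fits of the compared days alone, and leaving out libraries. The test was checked on simulated counts. Promoter sequences are RefSeq's (GRCm38.p6), and positions are those of GENCODE vM21 (GRCm38).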

Additional observations from a re-analysis of the deposited data

Results flagged for a closer look

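At 3 dpi, the only day with 4 libraries, the gap of the highest or lowest library to its nearest neighbour was set against the whole range of the day for the 48 genes and their mean. For 2 of these 49 items replicate 2 of 3 dpi stood apart beyond Dixon's 95% critical value. Ndc80 was at 1.10 log2 CPM in that library and 3.65 to 4.17 in the other three, a ratio of gap to range of 0.831. Spc24, its partner in the Ndc80 complex, was at 5.15 and 5.61 to 5.71 in the others, a ratio of 0.833. Chance flags about 1 in 20 items, which is 2.5 of 49. Other genes, Incenp (0.821) and Spc25 (0.818), were just under the limit in the same library, while Cdc20, Anln and Tpx2 were highest there, and the mean of the 48 genes in it, 4.06, lay between those of the other libraries of that day.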

How the results depend on the processing

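Counts of called genes among the 48 were most stable for 3 against 1 dpi (44; 41 to 44 as single libraries were left out), 4 against 1 dpi (35; 31 to 39), 6 against 1 dpi (34; 28 to 35) and the difference across days (45; 42 to 45). They moved more for 2 against 1 dpi (16; 6 to 17), 3 against 2 dpi (20; 1 to 26), 4 against 2 dpi (2; 0 to 9), 4 against 3 dpi (2; 0 to 2), 6 against 3 dpi (32; 16 to 34) and 6 against 4 dpi (2; 0 to 12). The number called over all genes moved in these fits as well, for 3 against 2 dpi from 27 to 409 called higher. With DESeq2 the counts were 27 for 2 against 1 dpi, 36 for 3 against 2 dpi, 11 for 4 against 2 dpi and 13 for 6 against 4 dpi. With every gene that had at least 1 count they were 30, 38, 18 and 16. More of all genes were called in these settings too. In the same order 78, 659 and 288 were higher and 365 lower with DESeq2, and 111, 615, 311 and 455 with every gene. By edgeR with the filter used above these were 22, 255, 113 and 39. With at least 10 counts in every library, which left 18 of the 48 to test, the count for 4 against 2 dpi stayed at 2 and the others were lower: 16 across days, 6 for 2 against 1 dpi, 16, 13 and 14 for 3, 4 and 6 against 1 dpi, 10 for 3 against 2 dpi, 1 for 4 against 3 dpi, 15 for 6 against 3 dpi and 1 for 6 against 4 dpi. Of the 10341 genes tested with that filter, 1951 were called across days and 9 were higher for 2 against 1 dpi. For 3, 4 and 6 against 1 dpi 452, 240 and 857 were higher, and for 3 and 4 against 2 dpi 233 and 96. For 4 against 3, 6 against 3 and 6 against 4 dpi 156, 1320 and 64 were lower. When each fit held just its own pair of days, 4 against 3 dpi and 6 against 4 dpi had 0 calls by edgeR. There 8 and 23 were lower at an unadjusted p under 0.05, and over all genes 34 and 5 were called lower. Alternatives chosen after seeing the data gave the following. Without the 3 dpi libraries 4 against 2 dpi had 1 call, where 129 of all genes were called higher. Without the 3 libraries under 9000000 counts there were 6 calls for 2 against 1 dpi, 9 for 4 against 2 dpi, 0 for 4 against 3 dpi (2 lower at an unadjusted p under 0.05) and 7 for 6 against 4 dpi. Over all genes 12 and 112 were then called higher and 45 and 89 lower, in the same order. With one sex pattern, 2 against 1 dpi had 4 calls and 6 against 4 dpi had 0 (22 lower at an unadjusted p under 0.05). Over all genes 8 were called higher and 2 lower there. The cause of the changed counts was not tested in any of these settings.

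The number of genes first called at 3 dpi (28) was 27 to 38 as single libraries were left out, 14 with every gene that had a count and 10 with at least 10 counts in every library. The number called at no day (4) was 3 to 7, with 7 without replicate 3 of 1 dpi, and was 2 with DESeq2, 32 with at least 10 counts in every library, 8 without the libraries under 9000000 counts and 7 at an adjusted p under 0.01. The number with their highest mean at 3 dpi (24) was 42 without the 5 dpi library, and the number at 4 dpi (2) was 1 to 9, with 9 without replicate 3 of 4 dpi and 1 without replicate 1 or replicate 2. The log2 fold change at 6 against 3 dpi changed sign for Cdc25b without replicate 2 of 3 dpi (-0.18; range -0.18 to 0.23 over left-out libraries) and for Spc25 without replicate 2 of 3 dpi (-0.24) or replicate 3 of 6 dpi (-0.22; range -0.24 to 0.37), none of them called.

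Replicate numbers gave little sign of pairing on average. Deviations from the day means correlated at a mean of 0.011 over 30 pairs with the same number, 6 of them over 0.1 and the highest 0.2. Over 72 other pairs the mean was -0.005, with 5 of them over 0.1 and the highest 0.148. These means cannot exclude pairing between some of the libraries. With the replicate block, calls numbered 10 for 3 against 2 dpi and 1 each for 4 against 2, 4 against 3 and 6 against 4 dpi. Over all genes 110 and 103 were then called higher and 89 and 12 lower, in the same order. Depth limits the genes with few counts at 1 dpi, and the single library limits every statement on 5 dpi.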
